A study of Saccharomyces cerevisiae with 9 samples.

Results

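The proteasome is the large protease that degrades proteins marked with ubiquitin. Its 20S core is a barrel of alpha rings and beta rings, with the protein-cutting sites inside the beta rings, and its 19S cap recognises, unfolds and feeds in the substrate with a ring of ATPases (Rpt proteins) and a set of non-ATPase subunits (Rpn proteins). In budding yeast the genes of these subunits are switched on together by the transcription factor Rpn4, which the proteasome itself degrades rapidly, and Ump1 helps the core to assemble and mature. The 34 genes described here are those of a list of proteasome genes given by name, a rule that uses no measured value, although the list was drawn up with earlier results of these data known. All 34 were found among the 7036 genes of the deposited tables. By role they are 7 alpha ring genes, 7 beta ring genes, 6 ATPase genes, 12 non-ATPase genes, the gene of Rpn4 and the gene of Ump1.

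The values are from chromatin immunoprecipitation followed by sequencing (ChIP-seq) in Saccharomyces cerevisiae of the W303 background. Cells were grown in log phase at 30 °C and then kept in synthetic medium without glucose for 10 min, in every group, so no library from cells with glucose was analysed here. The groups were pulldowns of Rvb1 carrying a TAP tag (2 libraries), of Rvb2 carrying a TAP tag (2 libraries) and of Pgk1 carrying a TAP tag (2 libraries), and the inputs, which are sonicated lysate without antibody (3 libraries, 1 from each tagged strain). Rvb1 and Rvb2 are paired AAA+ ATPases of several chromatin remodelling complexes, and Pgk1 is a glycolytic enzyme whose pulldown served as the control. The comparisons ask whether proteasome genes were recovered with either ATPase beyond that control, in the promoter and in the gene body. Whether the pulldowns of 1 strain were made from separate cultures is not in the labels. The p-values therefore cover the library-to-library spread, possibly a technical one. That spread was estimated from pulldowns and inputs together, and the inputs varied less, so p-values between pulldowns may be too small.

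Each gene had 1 count for a promoter window and 1 for a gene body window, each of 500 bases. Levels are given in CPM (counts scaled to a common library total after TMM), and since the windows are equally long they can be set side by side between genes. Promoter totals ran from 806134 counts in Pgk1 replicate 1, the shallowest library, to 2516799 in the pulldowns and from 4342277 to 4636420 in the inputs. At the proteasome promoters a pulldown library held 65 to 566 counts per gene and an input 415 to 723, so counting error is largest in Pgk1 replicate 1. Counts end at 1148 per promoter window, the number of positions at which a single-end read of 75 bases can touch 500 bases, counted over both strands, which compresses high values and most of all the inputs. The inputs from the Rvb1 and Rvb2 strains were more alike (chi-square per degree of freedom 0.607) than any other pair of libraries from 1 group. Counts of calls are also given with the average of these inputs. At promoters pairs of inputs had 0.607 to 2.34 and pairs of pulldowns from 1 group 4.34 to 9.2. Differences are log2 fold changes throughout, and where a gene is said to have risen by an amount or to stand at a value with no comparison named, it is that of Rvb1 over Pgk1.

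At promoters, Rvb1 recovered proteasome genes beyond Pgk1 in members of all 4 subunit classes. Of the 34 promoters, 16 were higher with Rvb1 and 0 lower, at an adjusted p under 0.05 (edgeR's quasi-likelihood test, Benjamini-Hochberg over all windows), 21 were higher at an unadjusted p under 0.05, and the median log2 fold change was 0.38. Over all 7034 promoters tested 24.3% were called in either direction, 12.3% were called higher and 20.6% were higher at the unadjusted threshold, and the median was -0.05. The called members were SCL1, PRE9, PUP2, PRE5 and PRE10 of the alpha ring, PRE3, PUP1, PRE7 and PRE4 of the beta ring, the ATPase genes RPT3 and RPT5, and the non-ATPase genes RPN6, RPN8, RPN11, RPN12 and RPN13. RPN4 and UMP1 were not called. The number of calls depended on single libraries: it was 0 without Rvb1 replicate 1 and 23 without its replicate 2, 6 higher and 1 lower when Pgk1 replicate 2 was left out, and 8, 7 and 9 without the inputs of the Rvb1, Rvb2 and Pgk1 strains. The members' median was 0.25 without Rvb1 replicate 1. Other fits called 5 (the pulldowns alone), 8 (the Rvb1 and Rvb2 inputs averaged as 1 library) and 0 (each pulldown set against its own input). Except for own inputs, the share of all promoters called in these fits is not given, so the counts describe the members alone. Each of the 16 fold changes was above 0 in 20 of 20 alternatives, which draw on the same libraries that the 16 were called in. The values that moved most were those of PRE5, PUP1 and RPN13, which stood at 0.33, 0.45 and 0.29 without Rvb1 replicate 1, and that of RPT3, which stood at 0.19 without Pgk1 replicate 2.

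**Figure D1:**
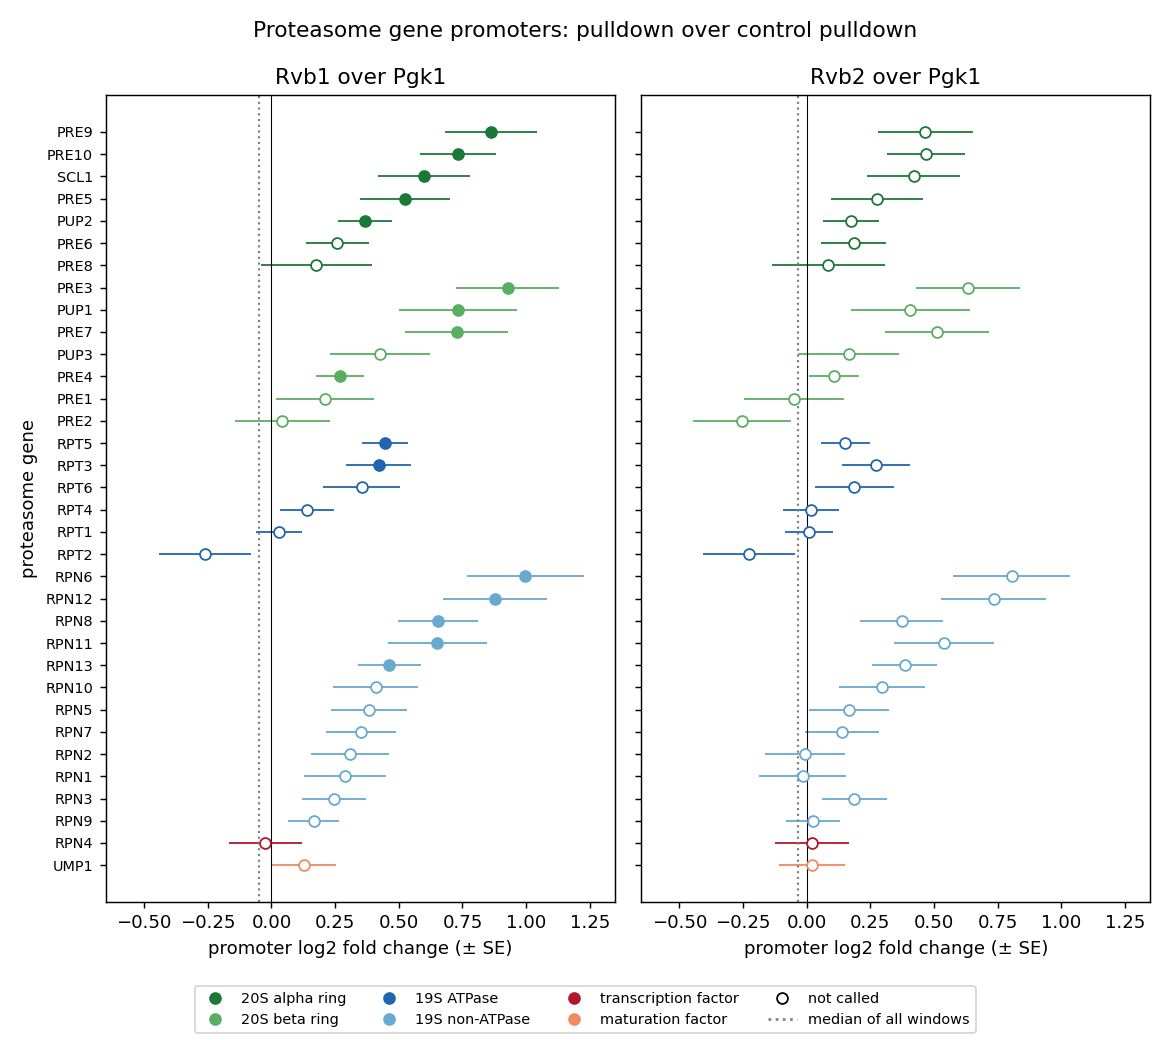
Promoter log2 fold change of each of the 34 genes in Rvb1 over Pgk1 (left) and Rvb2 over Pgk1 (right), coloured by role; bars are ± SE of the edgeR fit, filled points are called and the dotted line is the median of all promoters. With Rvb1 32 of 34 points lie above 0, from -0.26 at RPT2 to 0.998 at RPN6, and with Rvb2 29 of 34 do.

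The alpha ring, which forms the gated entrance of the core, had 5 of its 7 genes called, with a median log2 fold change of 0.52. PRE9 (YGR135W), whose product is the one core subunit that cells can do without, had 253 and 209 CPM with Rvb1, 202 and 153 with Rvb2, 116 and 136 with Pgk1 and 139.8, 140.1 and 134 in the inputs. Both Rvb1 and both Rvb2 libraries lay above every Pgk1 and input library. Its log2 fold change in Rvb1 over Pgk1 was 0.86 (SE 0.18, edgeR adjusted p = 0.015). PRE10 (YOR362C) had 220.1 and 184 CPM with Rvb1, 180 and 159 with Rvb2, 119.6 and 124 with Pgk1 and 142, 144 and 139 in the inputs, and again the Rvb libraries were above the others. PRE10 rose by 0.73 (SE 0.15, edgeR adjusted p = 0.0142) in Rvb1. SCL1 (YGL011C) had 238 and 198 CPM with Rvb1, 211 and 176 with Rvb2, 141 and 147 with Pgk1 and 147, 142 and 148 in the inputs, with both Rvb groups above Pgk1 and the inputs. SCL1 rose by 0.60 (SE 0.18, edgeR adjusted p = 0.0316). PRE5 (YMR314W) had 232 and 181 CPM with Rvb1, 189 and 162 with Rvb2, 165 and 131 with Pgk1 and 136, 139 and 132 in the inputs. Both Rvb1 libraries lay above Pgk1 and the inputs, but Rvb2 replicate 2 lay below Pgk1 replicate 1. PRE5 rose by 0.52 (SE 0.18, edgeR adjusted p = 0.0444). PUP2 (YGR253C) had 151 and 136 CPM with Rvb1, 132 and 122 with Rvb2, 106 and 114 with Pgk1 and 122, 121 and 121 in the inputs, so Rvb1 was above every other group while Rvb2 reached down to the inputs. PUP2 rose by 0.37 (SE 0.10, edgeR adjusted p = 0.0279). The remaining alpha genes, PRE8 and PRE6, were at 0.18 and 0.26 and were not called. PRE8 had the lowest promoter level of the 34 in each of the 9 libraries, with 90.3 to 99.4 CPM in the inputs.

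In the beta ring 4 of 7 genes were called, with a median of 0.43. PRE3 (YJL001W), the subunit with caspase-like activity, had 282 and 235 CPM with Rvb1, 241 and 183 with Rvb2, 137 and 135 with Pgk1 and 141, 133 and 145 in the inputs. Each Rvb library was above each of the other libraries, and PRE3 rose by 0.93 (SE 0.20, edgeR adjusted p = 0.0156). PUP1 (YOR157C), the subunit with trypsin-like activity, had 288 and 202 CPM with Rvb1, 234 and 161 with Rvb2, 171 and 131 with Pgk1 and 135, 136 and 135 in the inputs. Rvb1 was clear of Pgk1 while Rvb2 replicate 2 was not clear of Pgk1 replicate 1, and PUP1 rose by 0.73 (SE 0.23, edgeR adjusted p = 0.0363) in Rvb1. PRE2 (YPR103W), the subunit with chymotrypsin-like activity, had 197 and 154 CPM with Rvb1, 148 and 141 with Rvb2, 222 and 140.1 with Pgk1 and 135, 135 and 134 in the inputs. Here Pgk1 replicate 1 was the highest library of the 9. The log2 fold change of PRE2 was 0.04 (SE 0.19, edgeR adjusted p = 0.873), and it stood at 0.35 without Pgk1 replicate 1 and -0.32 without Pgk1 replicate 2. The genes of the subunits without a cutting site were PRE7, PRE4, PRE1 and PUP3. PRE7 (YBL041W) had 271 and 210 CPM with Rvb1, 227 and 190.1 with Rvb2, 166 and 131 with Pgk1 and 136, 132 and 134 in the inputs. No Rvb library overlapped the Pgk1 libraries or inputs, and PRE7 rose by 0.73 (SE 0.20, edgeR adjusted p = 0.0256). PRE4 (YFR050C) had 162 and 148 CPM with Rvb1, 142 and 138 with Rvb2, 124 and 132 with Pgk1 and 129, 130.4 and 135 in the inputs. Each Rvb library was above Pgk1 and the inputs, by a narrow margin, and PRE4 rose by 0.27 (SE 0.09, edgeR adjusted p = 0.0496). PRE1 (YER012W) had 219 and 183 CPM with Rvb1, 192 and 146 with Rvb2, 202 and 154 with Pgk1 and 142, 145 and 146 in the inputs, where Pgk1 replicate 1 lay between the Rvb1 libraries, and its log2 fold change was 0.21 (SE 0.19, edgeR adjusted p = 0.41). It ran from 0.00 without Pgk1 replicate 2 to 0.40 without Pgk1 replicate 1. PUP3 stood at 0.43 and was not called.

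The ATPase genes had the smallest median of the 4 subunit classes, 0.25, with 2 of 6 called. RPT5 (YOR117W), whose tail docks into the alpha ring, had 163 and 159.7 CPM with Rvb1, 135 and 129 with Rvb2, 112 and 121 with Pgk1 and 130.1, 125 and 128 in the inputs. The Rvb1 libraries were the highest and close to each other, and RPT5 rose by 0.45 (SE 0.09, edgeR adjusted p = 0.0141). RPT3 (YDR394W) had 178 and 143 CPM with Rvb1, 149 and 146 with Rvb2, 144 and 113 with Pgk1 and 135, 131 and 126 in the inputs. Its Rvb1 replicate 2 lay just below Pgk1 replicate 1, so the groups overlapped, although RPT3 was called at 0.42 (SE 0.13, edgeR adjusted p = 0.032). RPT1 (YKL145W) had 129 and 135 CPM with Rvb1, 127 and 132 with Rvb2, 119.6 and 132 with Pgk1 and 131, 132 and 131 in the inputs, a range within which no group stood apart, and its log2 fold change was 0.03 (SE 0.09, edgeR adjusted p = 0.842). RPT4 (YOR259C) had 153 and 136 CPM with Rvb1, 126 and 140.2 with Rvb2, 114 and 139 with Pgk1 and 133, 129.5 and 136 in the inputs, with the groups overlapping and a log2 fold change of 0.14 (SE 0.10, edgeR adjusted p = 0.31). RPT2 (YDL007W), whose tail helps to open the gate of the core, had 165 and 132 CPM with Rvb1, 151 and 156 with Rvb2, 229 and 149 with Pgk1 and 136, 129 and 141 in the inputs. The highest of these was Pgk1 replicate 1, and Rvb1 replicate 2 lay within the inputs. RPT2 had the lowest fold change of the 34, -0.26 (SE 0.18, edgeR adjusted p = 0.269). Without Pgk1 replicate 2 it was called lower, at -0.60 (edgeR adjusted p = 0.0397), and without Pgk1 replicate 1 it was 0.02. RPT6 stood at 0.35 and was not called.

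Of the 12 non-ATPase genes 5 were called, with a median of 0.40. RPN6 (YDL097C), which clamps the outer lid of the cap onto the core, had 288 and 224 CPM with Rvb1, 277 and 175 with Rvb2, 137 and 123 with Pgk1 and 129, 134 and 128 in the inputs. The lowest Rvb library was above the highest of the other 5. RPN6 had the highest fold change of the 34 in Rvb1 over Pgk1, 0.998 (SE 0.23, edgeR adjusted p = 0.0165), and stood above 99.5% of all promoters. RPN12 (YFR052W), the last subunit to join the lid, had 257 and 205 CPM with Rvb1, 250.5 and 172 with Rvb2, 119.6 and 131 with Pgk1 and 136, 137 and 134 in the inputs, with the same separation, and rose by 0.88 (SE 0.20, edgeR adjusted p = 0.0165). RPN11 (YFR004W), the enzyme that removes ubiquitin from the substrate, had 248 and 227 CPM with Rvb1, 248 and 193 with Rvb2, 156 and 148 with Pgk1 and 142, 139.5 and 143 in the inputs. Its Pgk1 libraries were slightly above the inputs and its Rvb libraries well above both, and RPN11 rose by 0.65 (SE 0.20, edgeR adjusted p = 0.0316). RPN8 (YOR261C), its partner subunit, had 196 and 178 CPM with Rvb1, 185 and 129 with Rvb2, 104 and 127 with Pgk1 and 132, 135 and 138 in the inputs. Both Rvb1 libraries were above Pgk1 and the inputs at RPN8, but Rvb1 replicate 2 lay below Rvb2 replicate 1 and Rvb2 replicate 2 lay below the inputs, and RPN8 rose by 0.65 (SE 0.16, edgeR adjusted p = 0.0178) in Rvb1. RPN13 (YLR421C), a ubiquitin receptor, had 186 and 152 CPM with Rvb1, 171 and 154 with Rvb2, 124 and 124 with Pgk1 and 133, 125 and 135 in the inputs, with every Rvb library above the rest, and rose by 0.46 (SE 0.12, edgeR adjusted p = 0.0227).

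The other non-ATPase genes did not pass the test. RPN1 (YHR027C), the docking site of ubiquitin shuttle proteins, had 181 and 144 CPM with Rvb1, 166 and 107 with Rvb2, 144 and 132 with Pgk1 and 135, 139.9 and 134 in the inputs, and its Rvb1 libraries were above Pgk1 by a narrow margin, with a log2 fold change of 0.29 (SE 0.16, edgeR adjusted p = 0.176). RPN2 (YIL075C), the scaffold that holds Rpn13, had 211 and 164 CPM with Rvb1, 162 and 143 with Rvb2, 159.5 and 149 with Pgk1 and 136, 140.4 and 141 in the inputs. Its Rvb1 libraries were above both Pgk1 libraries while Rvb2 overlapped them, and its log2 fold change in Rvb1 was 0.31 (SE 0.15, edgeR adjusted p = 0.134). RPN5 (YDL147W), a lid subunit, had 179 and 159 CPM with Rvb1, 180 and 119 with Rvb2, 126 and 132 with Pgk1 and 135, 129 and 123 in the inputs. Its Rvb2 libraries were the highest and the lowest of the 9, and its fold change in Rvb1 was 0.38 (SE 0.15, edgeR adjusted p = 0.0695). RPN7 (YPR108W), also of the lid, had 165 and 133 CPM with Rvb1, 154 and 114 with Rvb2, 112 and 122 with Pgk1 and 136, 126 and 123 in the inputs. Rvb1 was above Pgk1 but reached into the inputs, and the fold change was 0.35 (SE 0.14, edgeR adjusted p = 0.0665). Without Rvb1 replicate 1, RPN1 stood at 0.09, RPN2 at 0.10 and RPN7 at 0.15. The lid genes RPN3 and RPN9 and the ubiquitin receptor gene RPN10 stood at 0.25, 0.17 and 0.41.

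RPN4 (YDL020C), the gene of the transcription factor, had 158 and 147 CPM with Rvb1, 176 and 143 with Rvb2, 173 and 146 with Pgk1 and 144, 144 and 136 in the inputs. The groups overlapped, the highest libraries being Rvb2 replicate 1 and Pgk1 replicate 1, and the log2 fold change was -0.02 (SE 0.14, edgeR adjusted p = 0.909). UMP1 (YBR173C), the gene of the maturation factor, had 160.5 and 157 CPM with Rvb1, 159 and 138 with Rvb2, 159.5 and 138 with Pgk1 and 137, 144 and 143 in the inputs, again with overlapping groups, and stood at 0.13 (SE 0.13, edgeR adjusted p = 0.446). Their directions are not settled, since RPN4 ran from -0.17 to 0.08 and UMP1 from -0.0029 to 0.23 over the 20 alternatives.

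**Figure D2:**
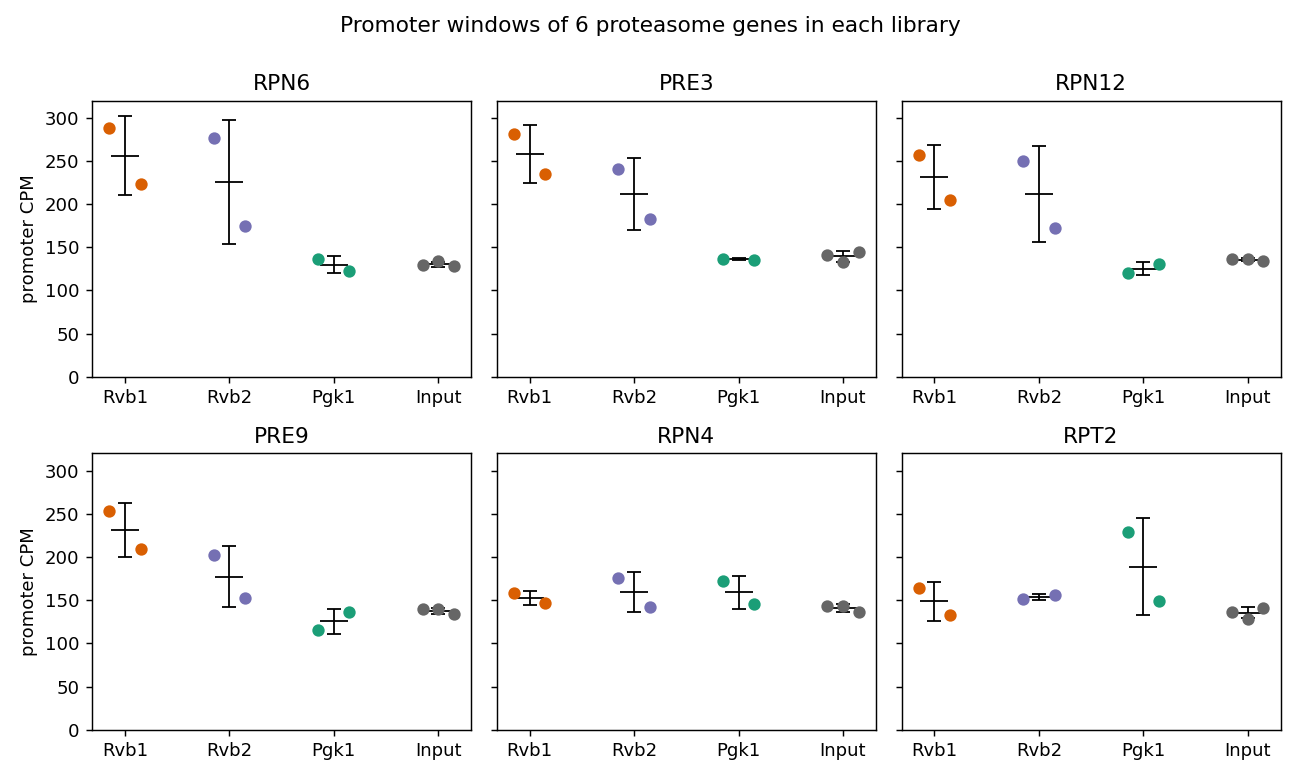
Promoter level in CPM in each of the 9 libraries for RPN6, PRE3, RPN12, PRE9, RPN4 and RPT2; points are libraries and bars are the group mean ± SD (n = 2 pulldowns or 3 inputs). At RPN6, PRE3, RPN12 and PRE9 every Rvb library is above every Pgk1 library and input, while at RPN4 and RPT2 the groups overlap.

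Counted without a test, both Rvb1 libraries were above both Pgk1 libraries at 23 of the 34 promoters and below them at 0, where 28.4% of all promoters had the first order and 28.2% the second. For Rvb2 the count was 17 above and 0 below, beside 21.8% and 20.7% of all promoters.

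Rvb2 gave smaller differences from Pgk1 at the same promoters. None of the 34 was called by edgeR (0% of all promoters), while 10 were higher at an unadjusted p under 0.05, a share of all promoters that was 9.99%, and DESeq2 called 2 of the 33 to which it gave an adjusted p, RPN6 and RPN12, beside 1.98% of the promoters with one. The median log2 fold change was 0.18, beside -0.03 over all promoters, and 29 of 34 were above 0. That median was 0.10 without Rvb2 replicate 1 and 0.32 without its replicate 2. The highest were RPN6 at 0.80 (SE 0.23, edgeR adjusted p = 0.188), RPN12 at 0.74 (SE 0.21, edgeR adjusted p = 0.188), PRE3 at 0.63 (SE 0.20, edgeR adjusted p = 0.203) and RPN11 at 0.54 (SE 0.20, edgeR adjusted p = 0.217). Without Rvb2 replicate 1 these stood at 0.44, 0.44, 0.42 and 0.34. The lowest were PRE2 at -0.25 (SE 0.19, edgeR adjusted p = 0.472), RPT2 at -0.23 (SE 0.18, edgeR adjusted p = 0.491), PRE1 at -0.05 (SE 0.20, edgeR adjusted p = 0.899) and RPN1 at -0.02 (SE 0.17, edgeR adjusted p = 0.966). At PRE2 and RPT2 this again turned on Pgk1 replicate 1, without which they stood at 0.04 and 0.04. The median was 0.06 over the 14 members that shared no promoter bases with a gene read in the opposite direction.

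Both comparisons use the same Pgk1 libraries, so their likeness is no separate support. The direct difference between Rvb1 and Rvb2 was called at none of the 34 promoters by edgeR (0% of all promoters) or DESeq2 (0.0142% of all promoters with an adjusted p), and 2 of them passed an unadjusted p under 0.05, beside 5.91% of all promoters. The median of that difference was 0.19, with 32 of 34 above 0, beside -0.01 over all promoters. It was 0.05 without Rvb1 replicate 1, 0.06 without Rvb2 replicate 2 and 0.33 without Rvb2 replicate 1.

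Against the inputs, which were sequenced deeper than the pulldowns, Rvb1 was higher at 24 of the 34 promoters and lower at 0, with a median of 0.39 (beside 0.00 over all promoters). Over all promoters 51.8% were called in either direction and 25.4% were called higher. For fits without 1 library or with averaged inputs these shares are not given, so those counts describe the members alone. The count was 0 and the median 0.25 without Rvb1 replicate 1, and the count was 15, 15 and 14 without the inputs of the Rvb1, Rvb2 and Pgk1 strains, and it was 15 with the Rvb1 and Rvb2 inputs averaged. For Rvb2 none was called by edgeR (0% of all promoters), 12 were higher at an unadjusted p under 0.05 (20.1% of all promoters) and DESeq2 called 8, beside 13.4% of the promoters it tested called higher, with a median of 0.19 (0.08 without Rvb2 replicate 1, 0.32 without its replicate 2). Pgk1 itself was called at 0 of the 34 by edgeR (0% of all promoters) and at 1 of the 24 with an adjusted p by DESeq2 (11.8% called higher of the promoters with one), 1 passed an unadjusted p under 0.05 (9.62% of all promoters), and its median over input was -0.01.

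Taken library by library, with each pulldown set against the input of its own strain, the median log2 ratio of the 34 promoters was 0.45 and 0.23 in Rvb1 replicates 1 and 2, 0.31 and 0.12 in Rvb2 and 0.03 and -0.01 in Pgk1. The same median over all promoters was -0.03 to -0.01 in the 6 pulldowns. Members above 0 numbered 33 and 31 in Rvb1, 32 and 25 in Rvb2 and 18 and 14 in Pgk1. Replicate 1 was higher than replicate 2 for either ATPase, so the shift was present in each of the 4 Rvb libraries but unequal in size. Over all promoters replicate 1 was also more widely spread. The quartiles were -0.43 and 0.38 in Rvb1 replicate 1, and -0.23 and 0.24 in its replicate 2. In Rvb2 they were -0.33 and 0.32, and -0.15 and 0.16. When the own-input ratios were compared between groups, with a fit that subtracts 1 input per strain, Rvb1 stood above Pgk1 at 31 of 34 promoters with a median of 0.35 and a typical SE of 0.35, and edgeR called 0 (0% of all promoters), with 1 at an unadjusted p under 0.05 (5.62% of all promoters).

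**Figure D3:**
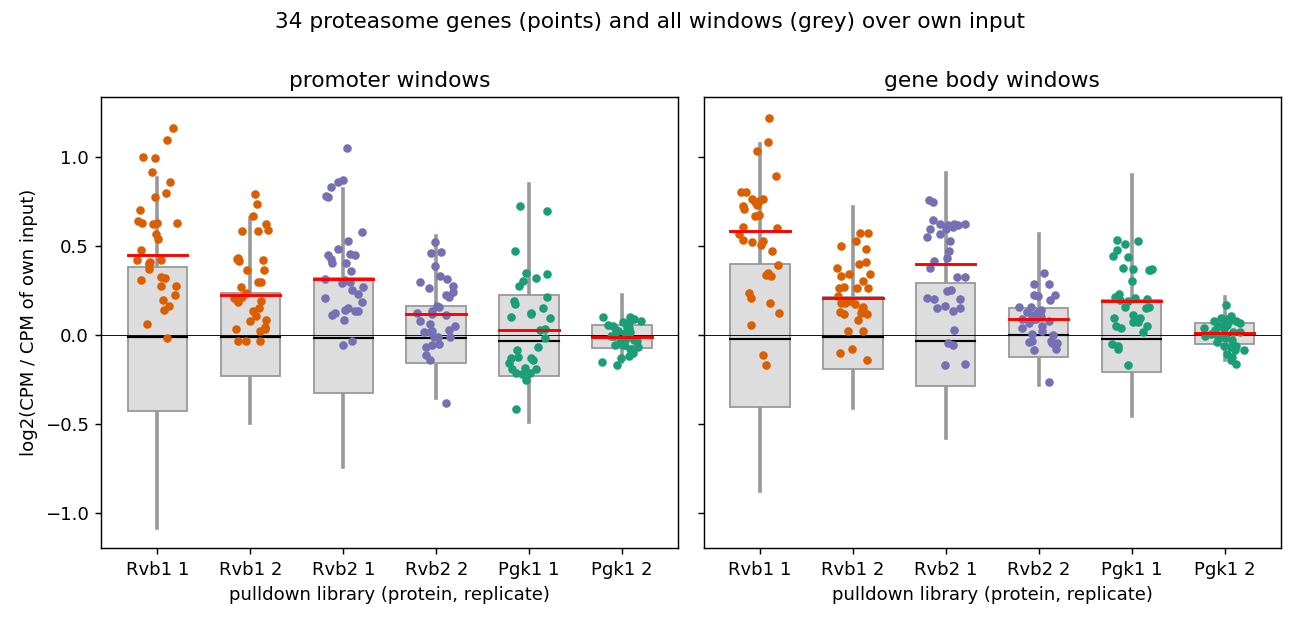
Log2 ratio of each pulldown library over the input of its own strain for the 34 genes, in the promoter and the gene body; points are genes, red lines their medians, and grey boxes, whiskers and black lines the quartiles, the 5th to 95th percentiles and the median of all windows. Promoter medians are 0.45 and 0.23 for Rvb1, 0.31 and 0.12 for Rvb2 and 0.03 and -0.01 for Pgk1.

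Across the 34 promoters the own-input ratios of Rvb1 and Rvb2, averaged over the 2 libraries of each, had Pearson's r = 0.866, while Rvb1 and Pgk1 had 0.0405 and Rvb2 and Pgk1 had 0.0584. This is a correlation across genes, which are not independent replicates, and it shares no library between the sides, though the same sequence is measured in each. Over all promoters the values were 0.914, 0.479 and 0.63. Genes with a high ratio for 1 ATPase therefore had a high ratio for the other, as over the whole genome. The Rvb1 and Rvb2 sides are not fully separate, though. Over all promoters their same-numbered pulldowns deviated together (r = 0.727, beside 0.226 and 0.348 with Pgk1). Their own inputs were also closer to each other (chi-square per degree of freedom 0.607) than to the Pgk1 input (2.3 and 2.34). Whether either likeness raised the 0.866 above the values with Pgk1 was not tested.

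In gene bodies, the 500 bases from the gene's start onward, fewer members were called, although the median was close to that at promoters. In Rvb1 over Pgk1 2 of 34 were higher and 0 lower, RPN5 and RPN12, with 15 higher at an unadjusted p under 0.05. Over all gene bodies 13.8% were called in either direction, 6.7% were called higher and 16.5% were higher at the unadjusted threshold. The median log2 fold change of members was 0.33, beside -0.05 over all gene bodies, and 31 of 34 were above 0. The members' median was 0.15 without Rvb1 replicate 1 and 0.48 without its replicate 2. UMP1 (447 bases) and RPN13 (471 bases) are shorter than the window, which may therefore reach past their ends. RPN5 had 218 and 163 CPM with Rvb1, 183 and 120.1 with Rvb2, 136 and 120.2 with Pgk1 and 128, 124 and 131 in the inputs and rose by 0.62 (SE 0.18, edgeR adjusted p = 0.0373). RPN12 had 214 and 162 CPM with Rvb1, 194 and 133 with Rvb2, 126 and 125 with Pgk1 and 127, 129 and 130.3 in the inputs and rose by 0.60 (SE 0.17, edgeR adjusted p = 0.0379). At both genes the Rvb1 libraries were above every Pgk1 library and input, but without Rvb1 replicate 1 the log2 fold changes were 0.39 and 0.36 and neither was called. The genes with the highest fold changes, PUP1 and RPN11, were not called. PUP1 had 292 and 187 CPM with Rvb1, 222 and 153 with Rvb2, 168 and 126 with Pgk1 and 126, 131 and 131 in the inputs, and its log2 fold change was 0.74 (SE 0.25, edgeR adjusted p = 0.0523). RPN11 had 296 and 201 CPM with Rvb1, 213 and 174 with Rvb2, 177 and 144 with Pgk1 and 139, 136 and 136 in the inputs, and its log2 fold change was 0.65 (SE 0.23, edgeR adjusted p = 0.0643). In both, the Rvb1 libraries were above Pgk1 but far apart from each other, and without Rvb1 replicate 1 the values were 0.39 and 0.34. The lowest fold changes were at RPN4 and RPN7. RPN4 had 126 and 128 CPM with Rvb1, 149 and 141 with Rvb2, 158 and 137 with Pgk1 and 141, 133 and 138 in the inputs, and its log2 fold change was -0.18 (SE 0.11, edgeR adjusted p = 0.269). RPN7 had 126 and 127 CPM with Rvb1, 129.6 and 132 with Rvb2, 146 and 135 with Pgk1 and 136, 135 and 127 in the inputs, and its log2 fold change was -0.12 (SE 0.10, edgeR adjusted p = 0.412). At these 2 genes both Rvb1 libraries were below both Pgk1 libraries, and they were the 2 of 34 with that order (24.9% of all gene bodies), beside 17 with the opposite one (23.8% of all gene bodies).

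For fits without 1 library the share of all gene bodies called is not given, so their counts describe the members alone. The gene body count was as dependent on single libraries. It was 0 without Rvb1 replicate 1, 19 without Rvb1 replicate 2, 6 and 5 without Rvb2 replicates 1 and 2, 7 and 0 without Pgk1 replicates 1 and 2, and 0 without any 1 of the 3 inputs. Rvb2 over Pgk1 had 0 called by edgeR (0% of all gene bodies) and 0 by DESeq2 of the 20 with an adjusted p (0.216% of the gene bodies with one), 1 higher at an unadjusted p under 0.05 (5.7% of all gene bodies), PRE10, and a median of 0.12 (-0.01 without Rvb2 replicate 1, 0.25 without its replicate 2). PRE10 had 225 and 178 CPM with Rvb1, 206 and 171 with Rvb2, 149 and 133 with Pgk1 and 134, 140.3 and 134 in the inputs, with every Rvb library above the rest, and its log2 fold change in Rvb2 was 0.42 (SE 0.19, edgeR adjusted p = 0.443). The next highest was PUP1 at 0.37 (SE 0.25, edgeR adjusted p = 0.579), which stood at 0.09 without Rvb2 replicate 1, and the lowest were RPN2 at -0.21 (SE 0.15, edgeR adjusted p = 0.592) and RPT4 at -0.08 (SE 0.13, edgeR adjusted p = 0.814). Both Rvb2 libraries were above both Pgk1 libraries at 4 gene bodies and below at 1, beside 17.3% above and 18.6% below over all genes. Rvb1 over Rvb2 had 0 called by edgeR (0%) and by DESeq2 (0%), while 3 passed an unadjusted p under 0.05 (7.36% of all gene bodies). Its median was 0.19, and it was 0.01 without Rvb1 replicate 1, 0.04 without Rvb2 replicate 2 and 0.35 without either of the other Rvb libraries.

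Over input, Rvb1 was higher at 24 of the 34 gene bodies, with a median of 0.43. Of all gene bodies 48.9% were called and 23.2% were called higher. For fits without 1 library or with another scaling these shares are not given, so those counts describe the members alone. The count was 0 and the median 0.22 without Rvb1 replicate 1, and the count was 9, 10 and 10 without the inputs of the Rvb1, Rvb2 and Pgk1 strains. This comparison also moved with the scaling: scaled to the summed total of both windows, 9 were higher, 2 were lower and the median of all gene bodies went from -0.01 to -0.30. Rvb2 over input had 0 called (0% of all gene bodies), 9 higher at an unadjusted p under 0.05 (17% of all gene bodies) and 3 by DESeq2 of the 24 with an adjusted p (36.4% called higher of the gene bodies with one), with a median of 0.22 (0.07 without Rvb2 replicate 1, 0.39 without its replicate 2). Pgk1 over input had 0 called by edgeR (0%) and, of the 16 with an adjusted p, 0 by DESeq2 (11.9% of the gene bodies with one), 0 at an unadjusted p under 0.05 (8.54% of all gene bodies), and a median of 0.09 (-0.01 without Pgk1 replicate 1, 0.16 without its replicate 2). In Pgk1 replicate 1 the median gene body ratio over its own input was 0.19, close to the 0.21 of Rvb1 replicate 2, whereas at promoters these values were 0.03 and 0.23.

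The difference between the windows was tested directly, by the interaction of window and group within each library. In Rvb1 against Pgk1 13 of the 34 genes had a greater promoter than gene body difference and 0 a smaller one (edgeR, adjusted p under 0.05), beside 28.3% of all genes called in either direction and 24.5% called in this one. The median was 0.32 in members and 0.28 over all genes, so the members' window difference was close to that of the genome. It was largest at RPN6, 0.94 (SE 0.18, edgeR adjusted p = 0.0179), RPN7, 0.77 (SE 0.22, edgeR adjusted p = 0.0325), PRE9, 0.76 (SE 0.14, edgeR adjusted p = 0.0179), and RPN2, 0.66 (SE 0.19, edgeR adjusted p = 0.0342). RPN7 and RPN2 were not called in either window alone. For fits without 1 library or with averaged inputs the share of all genes called is not given, so those counts describe the members alone. The count was 0 without Rvb1 replicate 1, without Pgk1 replicate 2 or without the input of either Rvb strain, 3 without the input of the Pgk1 strain, 8 without Pgk1 replicate 1, and 0 with the Rvb1 and Rvb2 inputs averaged. In Rvb2 against Pgk1 0 were called (0% of all genes), with 9 greater in the promoter at an unadjusted p under 0.05 (14.6% of all genes) and a median of 0.25 beside 0.15.

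Promoter windows held 56.8% and 54.1% of the members' reads in the Rvb1 libraries, 55.0% and 52.4% in Rvb2, 48.6% and 49.5% in Pgk1 and 49.2% to 49.6% in the inputs. Over all genes these shares were 56.0% and 52.6%, 54.0% and 51.5%, 50.8% and 49.8%, and 49.5% to 49.7%.

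**Figure D4:**
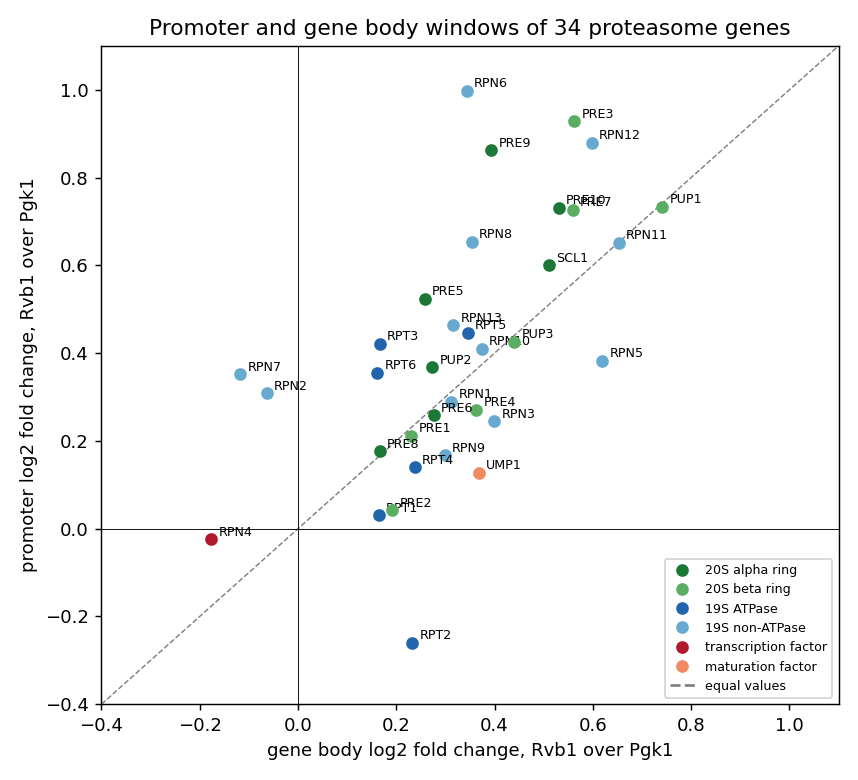
Promoter log2 fold change (vertical) plotted against gene body log2 fold change (horizontal) in Rvb1 over Pgk1 for the 34 genes, coloured by role, with a dashed line of equal values. PUP1 and RPN11 lie near the line, while RPN6 and PRE9 lie above it, at 0.998 and 0.86 in the promoter.

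A promoter window of 500 bases often covers more than the promoter of 1 gene. Of the 34 members 20 shared promoter bases with a gene that is read in the opposite direction, and 11 of these 20 were called in Rvb1 over Pgk1, beside 5 of the 14 that shared none (PRE9, PRE10, PRE4, RPT3 and PUP2). The share of all promoters called with or without such a neighbour is not given, so these numbers describe the members alone. Bases shared with genes read in the same direction are not given either. For a window shared with a gene read in the opposite direction, the counts cannot be assigned to 1 gene of the pair. PRE3 shared 489 bases with OST1, whose promoter window had the same fold change, 0.93. RPN6 shared 363 bases with PMT1, an enzyme of protein mannosylation, which stood at 0.88 in the promoter and 0.64 in the gene body (edgeR adjusted p = 0.0357), beside 0.34 in the body of RPN6. RPN12 shared 299 bases with RET2, a coatomer gene, which stood at 0.87 in the promoter and 0.88 in the gene body (edgeR adjusted p = 0.0326), beside 0.60 in the body of RPN12. PUP1 shared 412 bases with PET123, PRE5 shared 401 with TGL3 and RPN8 shared 360 with GPN2. The promoter windows of these partners stood at 0.76, 0.59 and 0.63. SCL1 shared 297 bases with MPO1, RPN11 shared 268 with YPI1 and RPN13 shared 336 with DCK1. Here the partners' promoter windows stood at 0.67, 0.77 and 0.57. RPN5 and RPN7, not called, shared 337 and 389 bases with NOP14 and YTH1, which were called at 0.65 and 0.35 (edgeR adjusted p = 0.0291 and 0.0455). Among genes with little shared sequence, PRE7 had 14 bases in common with FUI1, whose promoter stood at 0.37 (edgeR adjusted p = 0.0758). RPT5 had 117 in common with RPO31, whose promoter stood at 0.03 (edgeR adjusted p = 0.901).

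Genes that work with the proteasome but are not among the 34 were set beside them. Of 17 genes of assembly chaperones and bound factors, 2 promoters were higher with Rvb1 than with Pgk1 and 1 lower, with a median of 0.02, where 12.3% of all promoters were called higher. NAS6 (YGR232W), a chaperone of the ATPase ring, stood at 1.04 (SE 0.19, edgeR adjusted p = 0.013), with 269 and 221 CPM with Rvb1, 219.9 and 178 with Rvb2, 106 and 129 with Pgk1 and 137, 137 and 137 in the inputs. NAS2 (YIL007C), another such chaperone, stood at 0.49 (SE 0.15, edgeR adjusted p = 0.0335). FUB1 (YCR076C) fell, with a log2 fold change of -0.57 (SE 0.17, edgeR adjusted p = 0.0309). SEM1 (YDR363W-A), a small lid subunit outside the list of 34, was not called at its promoter, 0.19 (SE 0.21, edgeR adjusted p = 0.503), but was called in its gene body, 0.47 (SE 0.14, edgeR adjusted p = 0.0415), as was NAS6, 0.73 (SE 0.15, edgeR adjusted p = 0.0252). Of 18 genes of ubiquitin supply and delivery, 4 promoters were higher and 0 lower, with a median of 0.16. UFD2 (YDL190C), which lengthens ubiquitin chains, stood at 1.17 (SE 0.28, edgeR adjusted p = 0.0179), with 343 and 259.5 CPM with Rvb1, 367 and 198 with Rvb2, 125 and 141 with Pgk1 and 137, 146 and 138 in the inputs. UBA1 (YKL210W), the ubiquitin-activating enzyme, stood at 0.80 (SE 0.24, edgeR adjusted p = 0.0316). HRD1 (YOL013C), a ubiquitin ligase of the endoplasmic reticulum, stood at 0.62 (SE 0.20, edgeR adjusted p = 0.0389), and SHP1 (YBL058W), a cofactor of the Cdc48 ATPase, at 0.48 (SE 0.11, edgeR adjusted p = 0.0165). Promoter bases were shared with a divergent gene at NAS6 (479 with PHB2), NAS2 (405 with YIA6), UFD2 (377 with RBS1) and SHP1 (103 with CMC2). Counts in these windows cannot be assigned to 1 gene either, while UBA1, HRD1 and FUB1 shared none. Values of these genes with 1 library left out are not given here. In the gene body UBA1, UFD2 and NPL4 (YBR170C), another Cdc48 cofactor, were called higher, at 0.996, 0.58 and 0.42. Gene bodies called higher numbered 2 of 17 and 3 of 18 in the 2 lists, beside 6.7% of all gene bodies. Rvb2 over Pgk1 had 0 called by edgeR in either list and either window (0% of all windows). There 3 and 4 promoters were higher at an unadjusted p under 0.05, beside 9.99% of all promoters.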

How the data were processed

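The deposited tables hold raw read counts per gene, 1 table for promoters and 1 for gene bodies, each in windows of 500 bases by the tables' names; the authors used FastQC, Bowtie2, SAMtools, Picard, deepTools and bedtools, per the submitters' processing notes, without versions. Not given in the sources used here are the genome build and how duplicate and multiply mapped reads were treated. The placement of the windows was read from the counts. Of the pairs of divergent genes whose starts lie 499 to 501 bases apart in the RefSeq table (R64), 7 of 8 had promoter counts within 1 of each other in all 9 libraries, so the promoter window is the 500 bases before the gene's start. The gene body window starts at the gene's start and runs 500 bases onward, by the like test on tandem pairs; how genes shorter than that were treated was not examined. Of 7036 identifiers 5956 matched the table, used for names and neighbours.

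Counts were tested with edgeR 4.0.16 in R 4.3.3 (filterByExpr, TMM, quasi-likelihood test, 1 fit of the 9 libraries in 4 groups, 5 residual degrees of freedom), adjusted by Benjamini-Hochberg over all windows of the table. SEs were derived from the test statistic. Promoter and gene body counts were joined in a fit with the library as a block for the interaction. CPM used the TMM-scaled totals. The statistics were tested on simulated data with independent counts, a common spread in all libraries and no ceiling on counts. That test does not bear on the unequal spread, the ceiling or the shared deviations of these libraries. Alternatives were other size factors, other filters on low counts, DESeq2 1.42.0, own inputs, pulldowns alone, the replicate block, members without a divergent neighbour and leaving out each library. A correction for the ceiling on read positions and the averaged Rvb inputs were chosen after seeing the data.

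Between the input of the Rvb1 strain and that of the Rvb2 strain the chi-square per degree of freedom was 0.607 at promoters, below that of independent counts but above the 0.458 that counts with this ceiling would give, where other pairs of 1 group had 2.3 to 9.2. They were kept as separate libraries.

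Values in every library are given for RPN4, UMP1, the members highest and lowest in the comparisons with Pgk1 (4 each way at promoters, 2 at gene bodies) and those called there, 27 in all. The members and lists were chosen with earlier results of these data known. A search of promoters for the Rpn4 element was not run. Counting error and the spread between libraries are the errors covered.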

Additional observations from a re-analysis of the deposited data

How the results depend on the processing

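Counts of called members moved with single libraries and with the inputs. For most alternative fits, here and above, the share of all windows called is not given. There a change in the members' count cannot be told from a change over the whole genome. At promoters the members' median in Rvb1 over Pgk1 was above 0 in 21 of 21 alternatives (0.25 to 0.48), as was that in Rvb2 over Pgk1 (0.06 to 0.32), and in gene bodies it was above 0 in 20 of 20 for Rvb1 (0.15 to 0.48) and in 18 of 20 for Rvb2 (-0.01 to 0.25). The 0.06 at promoters for Rvb2 was the median of the 14 members without a divergent neighbour, beside 0.18 for all 34 and -0.03 over all promoters. Leaving out 1 library at a time gave 0 to 23 of 34 promoters for Rvb1 over Pgk1, 0 to 27 for Rvb1 over input, 0 to 10 for Rvb2 over input and 0 to 2 for Pgk1 over input. In gene bodies it gave 0 to 19 for Rvb1 over Pgk1, 0 to 1 for Rvb1 over Rvb2, 0 to 28 for Rvb1 over input and 0 to 3 for Rvb2 over input, and 0 to 16 for the window interaction with Rvb1. A lone library was taken to vary like the other groups. For Rvb1 over Pgk1 each pulldown against its own input gave 0 in either window, and the pulldowns alone gave 5 promoters and 0 gene bodies. Averaging the Rvb inputs gave 8 promoters and 0 gene bodies over Pgk1, 15 and 10 over input, and 0 for the interaction. Members without a divergent neighbour gave 5 over Pgk1 and 8 over input, of 14 tested. DESeq2 called 2 promoters for Rvb2 over Pgk1, 8 for Rvb2 over input and 1 for Pgk1 over input, and in gene bodies 6 for Rvb1 over Pgk1 and 3 for Rvb2 over input. With library totals in place of TMM, Rvb2 over input gave 1 promoter and Rvb1 over input 15 gene bodies (14 higher and 1 lower). Scaled to the summed total of both windows these were 4 promoters and 11 gene bodies (9 higher and 2 lower), and Rvb1 over Pgk1 gave 4 gene bodies (3 higher and 1 lower). That scaling moved the median of all gene bodies in Rvb1 over Pgk1 from -0.05 to -0.21. The cause of these moves was not tested. With the replicate number as a block, in the pulldowns alone, Rvb1 over Pgk1 gave 13 promoters, 8 gene bodies and 8 for the interaction, and Rvb2 gave 0. The labels do not pair the pulldowns, although same-numbered libraries of Rvb1 and Rvb2 deviated together at promoters (r = 0.727, and 0.226 and 0.348 with Pgk1) and in gene bodies (r = 0.698, and 0.386 and 0.486 with Pgk1). At the 27 genes given library by library, in the comparisons with Pgk1, no alternative differed in sign from the reported value where either was called. Without a call, signs did change, most often in gene bodies for Rvb2 over Pgk1, at 11 of 27 genes without Pgk1 replicate 2. The members' promoter median in Pgk1 over input was above 0 in 6 of 18 alternatives.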
